A study of Oryctolagus cuniculus with 10 samples.

Results

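Fetal rabbit lungs with a diaphragmatic hernia were compared with control lungs, by RNA sequencing of 2 hernia and 3 control libraries out of the 10 libraries of the series. The 5 libraries were chosen by their source labels alone, and the comparison covers the 13379 genes with at least 1 CPM (the count divided by the library total, times 1000000) in at least 2 of the 10 libraries. All libraries came from the lateral left upper lobe of New Zealand rabbit fetuses collected at E30.5 (E counts embryonic days). In the hernia group a left diaphragmatic hernia was created surgically at E25, and no occlusion was done. Control fetuses carry no operation in their labels, which do not say whether they had a sham operation. Occlusion lungs (n = 2) had tracheal occlusion at E27 without a hernia, and hernia with occlusion lungs (n = 3) had both operations. These 5 occluded libraries entered the shared estimate of spread and serve below as libraries that the comparison did not use.

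In congenital diaphragmatic hernia an opening in the diaphragm lets abdominal organs into the chest during gestation. The lung on that side stays small, with fewer airway branches and less gas-exchange surface, and its small arteries have thick muscular walls. The days before birth are the time when distal air spaces thin out and surfactant production increases, so a fetal rabbit lung of this age is in transition. The surgical rabbit model creates the defect in a lung that has already formed much of its airway tree. It is a model of compression late in development, without a genetic defect in the diaphragm or lung.

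The deposited table gives Ensembl rabbit gene identifiers without symbols, and none of the identifiers could be paired with a symbol here. Genes are therefore described by identifier, by level and by the libraries in which they were high or low, and no pathway or cell type can be named. For the same reason the labelled tissue could not be checked against lung markers. In whole lung tissue, fewer cells of a type and less RNA per cell cannot be told apart.

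Total counts lay between 17.5 and 19.9 M in the controls and at 16.4 and 22.2 M in the hernia libraries, and 18 to 23 genes stood at 0 in each of these 5 libraries. The titles of the hernia libraries begin with M38 and M39, while those of all other libraries begin with M and a number from M83 to M98. Titles also end in a digit, which is 3 in every library without a hernia and 1 or 2 in every library with one. No source used here says what these numbers and end digits stand for. A difference that follows either of them cannot be told apart from the hernia. The letter before the end digit, also unexplained, is L in all controls and R in both occlusion libraries. Libraries with a hernia carry either letter. Control 2 and hernia with occlusion library 1 share the stem M83, and occlusion library 2 and hernia with occlusion library 3 share M88. Nothing in the labels says whether fetuses shared a litter. The p-values below treat every library as independent, and they rest on the spread within groups, shared over all 10 libraries.

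The 2 hernia libraries were about as far from each other as 2 controls were. The median absolute difference in log2 expression over all genes was 0.187 between the hernia libraries, and from 0.145 to 0.218 in the 3 pairs of controls. Between a control and a hernia library it ran from 0.199 to 0.261 over 6 pairs, so the ranges within and between groups overlap. The pair of controls 1 and 3 was the closest, with 90 genes at least 2-fold apart, while control 2 was 509 and 688 genes apart from these. The hernia libraries were 612 genes apart at this size, and a control and a hernia library from 508 to 931.

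Of the 13379 genes, 1 was called higher with a hernia and 0 lower at an edgeR adjusted p under 0.05, which is 0.00747% and 0% of genes. At an unadjusted p under 0.05, 637 genes (4.76%) were higher and 801 (5.99%) lower. The gene that was called is ENSOCUG00000001536. Its level was 8.43, 10.5 and 6.99 CPM in controls 1, 2 and 3, and 29.8 and 41.6 CPM in hernia libraries 1 and 2. The lower hernia library thus lay well above the highest control. The log2 change was 2.05 ± 0.19 (SE), a 4.13-fold rise, with an edgeR adjusted p of 0.0206.

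This gene was not high in hernia lungs alone. It stood at 38.7 and 44.3 CPM in the occlusion libraries and at 37.1, 37.8 and 37 CPM with hernia and occlusion. Every one of the 7 libraries from operated fetuses therefore lay above every control. In occluded lungs, adding a hernia went with a log2 change of -0.15 ± 0.19 (SE; edgeR adjusted p = 0.984). The difference between the hernia effect without and with occlusion was 2.20 ± 0.26 (SE, log2), which missed the threshold in edgeR (adjusted p = 0.0803) and passed in DESeq2 (adjusted p = 1.14e-09). The call in hernia against control was lost without control 1 (edgeR adjusted p = 0.194), control 3 (0.117), hernia library 2 (0.123), or hernia with occlusion library 1 (0.0906) or 3 (0.0568), with log2 changes from 1.78 to 2.04.

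ENSOCUG00000006106 was the other gene named among those higher with a hernia. It was near silent in controls, with 0.34, 0.744 and 0.635 CPM from 6, 15 and 11 counts. The hernia libraries held 35.9 and 8.82 CPM, from 585 and 202 counts. Both hernia libraries lay far above the controls, and they also lay 4-fold apart from each other. In all 5 occluded libraries the gene stayed low, from 0.752 to 2.33 CPM. The log2 change with a hernia was 5.26 ± 0.68 (SE) and did not pass in edgeR (adjusted p = 0.09), whereas DESeq2 called it (adjusted p = 1.93e-11). Without hernia library 1 the log2 change was 3.92, and without hernia library 2 it was 5.94. It did not pass in edgeR without control 1, 2 or 3 (adjusted p = 0.396, 0.152 and 0.487). Nor did it pass in an edgeR fit of the 5 control and hernia libraries (0.0552). The log2 change was 5.25 without occlusion library 1 and 5.26 without occlusion library 2.

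ENSOCUG00000009644 had the lowest p among genes lower with a hernia. The controls held 132, 160 and 159 CPM and the hernia libraries 35.7 and 24.3 CPM, so that the hernia group stood at 19.9% of the control level. The log2 change of -2.33 ± 0.27 (SE) did not pass in edgeR (adjusted p = 0.0654). DESeq2 gave -2.33 with an adjusted p of 6.67e-16. The gene was at 108 and 92.8 CPM with occlusion and at 108, 167 and 96.7 CPM with both operations, so all 5 occluded libraries lay above both hernia libraries. It passed in edgeR without hernia with occlusion library 2 (adjusted p = 0.0188) and in a fit of the 5 control and hernia libraries (0.0182). It did not pass in edgeR without control 1, 2 or 3 (adjusted p = 0.194, 0.124 and 0.362). Nor did it pass without hernia with occlusion library 1 (0.141) or 3 (0.0568). The log2 change was -2.64 without hernia library 1 and -2.07 without hernia library 2.

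ENSOCUG00000000468 was an abundant gene, ranked 815 by control level among the genes tested. It stood at 219, 199 and 241 CPM in controls and at 95.1 and 117 CPM with a hernia. The groups did not overlap, and the log2 change of -1.05 ± 0.14 (SE) did not pass in edgeR (adjusted p = 0.09), although DESeq2 called it (adjusted p = 5.51e-09). Occlusion libraries held 172 and 158 CPM and libraries with both operations 145, 125 and 151 CPM. These levels fall between those of the controls and the hernia libraries. Without occlusion library 1 or 2 it passed in edgeR (adjusted p = 0.0494 and 0.0479).

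**Figure D1:**
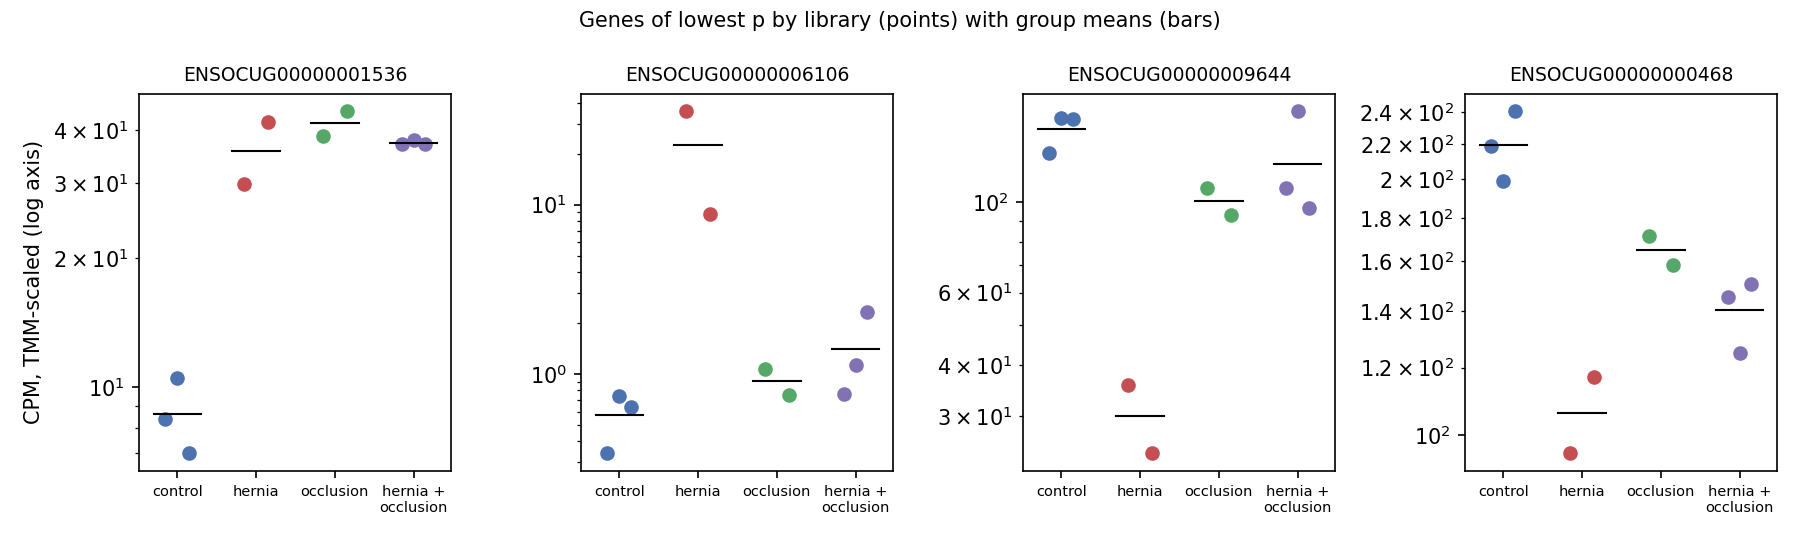
CPM of the 4 named genes in each of the 10 libraries, by group, on log axes that differ between panels. Points are libraries and horizontal bars are group means. ENSOCUG00000001536 is low in the 3 controls alone, from 6.99 to 10.5 CPM. ENSOCUG00000006106, ENSOCUG00000009644 and ENSOCUG00000000468 set the 2 hernia libraries apart from the other 8. For ENSOCUG00000000468 the margin is narrow, at 95.1 and 117 CPM against 125 CPM in hernia with occlusion library 2.

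Most genes differed little between the groups. The middle 50% of genes had log2 changes between -0.19 and 0.20, and the middle 90% between -0.58 and 0.63. A fitted change of at least 2-fold was seen for 206 genes upward (1.54%) and 227 downward (1.7%). The count of 433 in both directions was 896 without hernia library 2. The median standard error of a log2 change was 0.196, and the smallest change that reached an unadjusted p under 0.05 was 0.197. The gene of second lowest p had 9.78e-06 and would have needed a p under 7.47e-06 to be called. There were 143 genes higher and 204 lower at an unadjusted p under 0.01, and 23 higher and 38 lower under 0.001.

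DESeq2 called 51 genes higher (0.381%) and 97 lower (0.725%) in the same libraries. Of these 148 genes, 147 also had an edgeR unadjusted p under 0.05, beside 10.7% of all genes. No overlap between the groups was seen for 147, beside 4663 of all 13379 genes. Both counts come from the libraries that chose the 148 genes, so they are not separate support. The genes DESeq2 called higher had a median level of 12.7 CPM in controls and a median log2 change of 1.04, and 28 of 51 changed at least 2-fold. The genes it called lower were more abundant, at a median of 106 CPM in controls. In hernia libraries the medians were closer, at 58.2 CPM for the genes called lower and 33.4 CPM for those called higher. The genes called lower had a median log2 change of -0.81, and 33 of 97 changed at least 2-fold. The DESeq2 count of 148 fell to 49 without control 1, 65 without control 3, 78 without hernia library 1 and 65 without hernia library 2, and 197 were called without control 2. Between 33 and 109 of the 148 genes remained called in these 5 fits. With the control and hernia libraries alone, DESeq2 called 515 genes, including 144 of the 148.

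**Figure D2:**
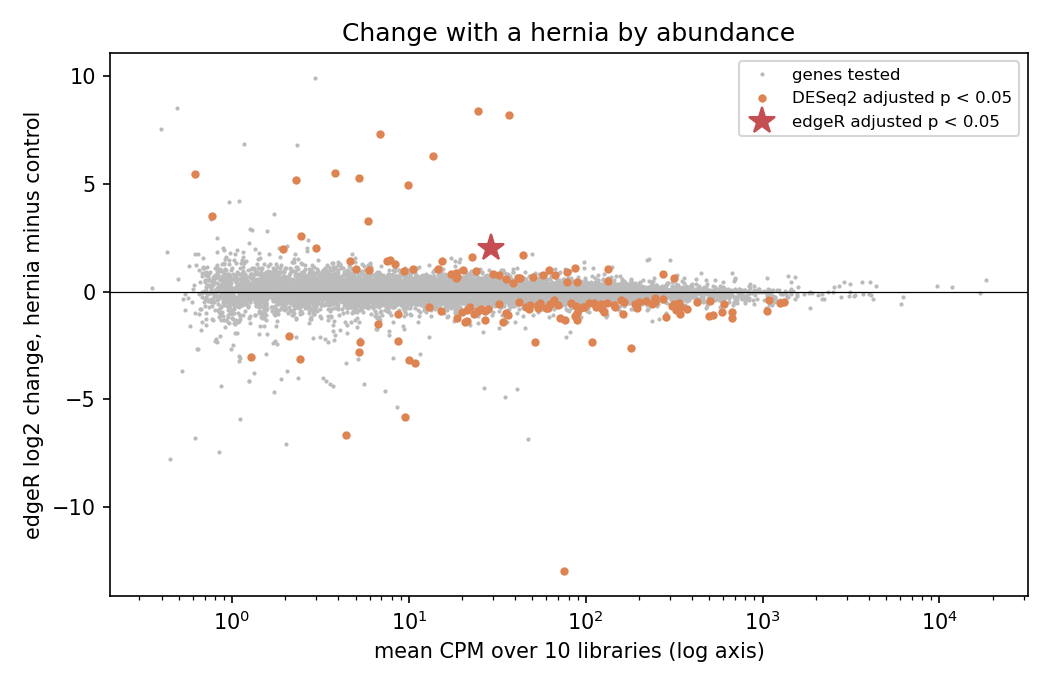
Each point is 1 gene, with its mean CPM over the 10 libraries on the horizontal log axis and its edgeR log2 change, hernia minus control, on the vertical axis. The 51 higher and 97 lower genes called by DESeq2 are orange and the gene called by edgeR is the red star. Above 100 CPM most orange points lie below 0.

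The groups did not overlap in 2392 genes upward (17.9%) and 2271 downward (17%). If the control and hernia libraries differed by chance alone, 1 of 10 orderings would place the hernia libraries above all controls. Another 1 of 10 would place them below all controls. A share near 10% in a direction is therefore no sign of a hernia effect. Whether the larger shares exceed chance was not tested. Direction varied with the level of the gene. Among 3657 genes with a mean of 1 to 10 CPM, 19.8% lay higher without overlap and 10% lower. Among 7173 genes of 10 to 100 CPM the shares were close, at 18.8% and 18%. Among 2167 genes of 100 to 1000 CPM, 11.8% lay higher and 25.7% lower, and among the 81 genes of 1000 CPM and over, 16% and 29.6%. Classes were made from the mean over all 10 libraries.

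Tests of single genes showed the same pattern, in the same libraries and so not as separate support. In the class of 1 to 10 CPM, 188 genes (5.14%) were higher and 96 (2.63%) lower at an edgeR unadjusted p under 0.05. Over all genes the shares were 4.76% and 5.99%. In the class of 100 to 1000 CPM, 64 (2.95%) were higher and 228 (10.5%) lower at this threshold. Of the 2167 genes there, DESeq2 called 4 higher and 39 lower, beside 0.381% and 0.725% of all genes. The median log2 change fell with level across the classes from 1 CPM upward, at 0.09, 0.01, -0.06 and -0.10. The median standard error of a single gene's log2 change was 0.36, 0.17, 0.14 and 0.18 in these classes, and the class medians themselves were not tested.

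The balance of the 2 directions over all genes depended on scaling, and the contrast between low and high classes was seen under each scaling tried. With library totals alone, hernia libraries lay above all controls in 20.7% of genes and below all controls in 14.5%. Under this scaling 806 genes were higher and 641 lower at an unadjusted p under 0.05, against 637 and 801 with scaled libraries. In the class of 100 to 1000 CPM, library totals gave 86 higher and 182 lower, and size factors as in DESeq2 gave 59 and 232. For all genes of at least 100 CPM the shares at this threshold were 3.02% higher and 10.5% lower. Single libraries moved these shares: they were 1.42% and 5.83% without control 1, 1.51% and 8.54% without control 3, 1.73% and 6.94% without hernia library 1, and 1.73% and 4.36% without hernia library 2.

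**Figure D3:**
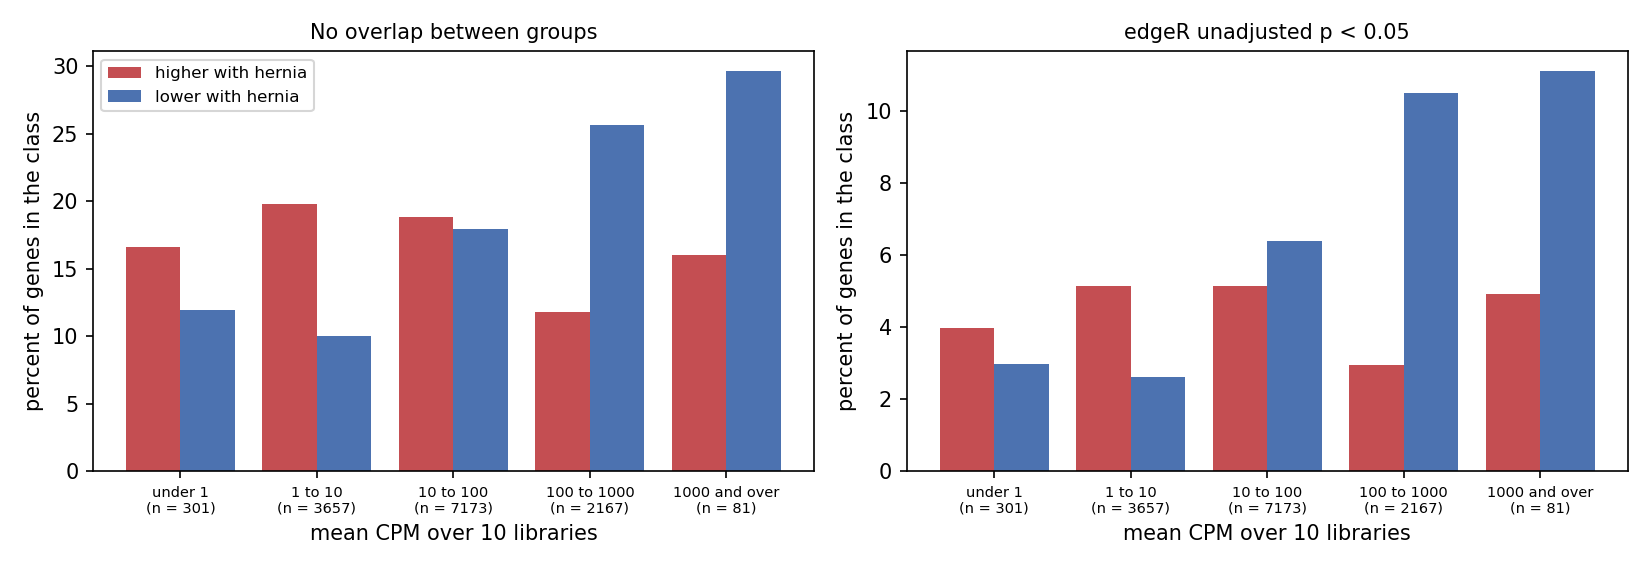
Bars give the percent of genes in 5 classes of mean CPM that were higher (red) or lower (blue) with a hernia, by groups that did not overlap (left) and by edgeR unadjusted p under 0.05 (right). Below 10 CPM the red bars are taller, and from 100 CPM the blue bars are taller, at 25.7% against 11.8% between 100 and 1000 CPM on the left.

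The genes most abundant in controls lay lower with a hernia more often than higher, by small amounts. They were ranked on control values, which also enter the comparison, so the choice itself favours changes below 0. The 100 genes of highest mean level in controls ran from 910 to 19123 CPM and took up 22.7% to 22.8% of counts in the controls, against 23.9% and 22.8% in the hernia libraries. Fitted log2 changes were above 0 in 35 and below 0 in 65 of them, with a median of -0.07 beside 0.01 for all genes. The groups did not overlap in 14 of the 100 upward and 29 downward, beside 17.9% and 17% of all genes. No gene of the 100 reached a 2-fold change, with log2 changes from -0.92 to 0.74. None was called by edgeR (lowest adjusted p = 0.201). At an unadjusted p under 0.05, 4 of the 100 were higher and 13 lower, beside 4.76% and 5.99% of all genes, and DESeq2 called 4, beside 1.11% of all genes. The top gene of each library, which need not be the same gene, held 3.08% of counts in hernia library 1, 2.06% in hernia library 2 and 1.86% to 2.04% in controls.

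A few genes stood far apart between the groups. The nearest hernia and control libraries were at least 1.5-fold apart in 118 genes upward (0.882%) and 128 downward (0.957%), and at least 2-fold apart in 41 upward (0.306%) and 52 downward (0.389%). Most genes with a 2-fold gap were of low level, and 10 in each direction had a mean of at least 10 CPM over the 10 libraries. The 41 genes had a median of 0.832 CPM in controls and 6.41 CPM with a hernia, and the 52 genes had 3.02 CPM in controls and 0.429 CPM with a hernia.

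A gap of at least 4-fold, in genes with a group mean of at least 1 CPM, was found in 15 genes upward and 16 downward. The 15 genes had at most 1.98 CPM in any control, and 3 of them had 0 counts in all controls, where any hernia value above 0 meets the gap. In hernia libraries they ran from 0.981 to 186 CPM, with medians of 4.9 and 8.21 CPM in libraries 1 and 2. Unadjusted p was under 0.05 for all 15 in edgeR, which called none of them, and DESeq2 called 10. Over all genes 4.76% were higher at this unadjusted p in edgeR, and DESeq2 called 0.381% higher. Gap and p-values rest on the same control and hernia libraries, so low p-values here follow largely from the choice. Of the 16 genes with a gap downward, 12 had an unadjusted p under 0.05 in edgeR, beside 5.99% of all genes. DESeq2 called 5 of the 16, beside 0.725% of all genes. Levels of the 16 genes ran from 0.0993 to 39.7 CPM in the controls and up to 2.7 CPM in a hernia library. In 2 of the 16 genes both hernia libraries had 0 counts, where any control value above 0 meets the gap.

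Few of these wide gaps set the hernia libraries apart from all other libraries. In 13 of the 15 genes upward, at least 1 of the 5 occluded libraries also lay at least 4-fold above every control. Occlusion library 1, from a fetus without a hernia, did so in 9 genes, occlusion library 2 in 1, and the hernia with occlusion libraries in 6, 6 and 2. In 15 of the 16 genes downward, at least 1 occluded library also lay 4-fold below every control, with 8 and 4 genes in the occlusion libraries and 8, 6 and 8 in those with both operations. Occlusion library 2 held the highest values of the downward genes, up to 298 CPM, with a median of 10.2 CPM against 2.05 to 3.13 CPM in the controls. Genes that separated the 2 hernia libraries from the 3 controls thus often varied widely among the occluded libraries as well.

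**Figure D4:**
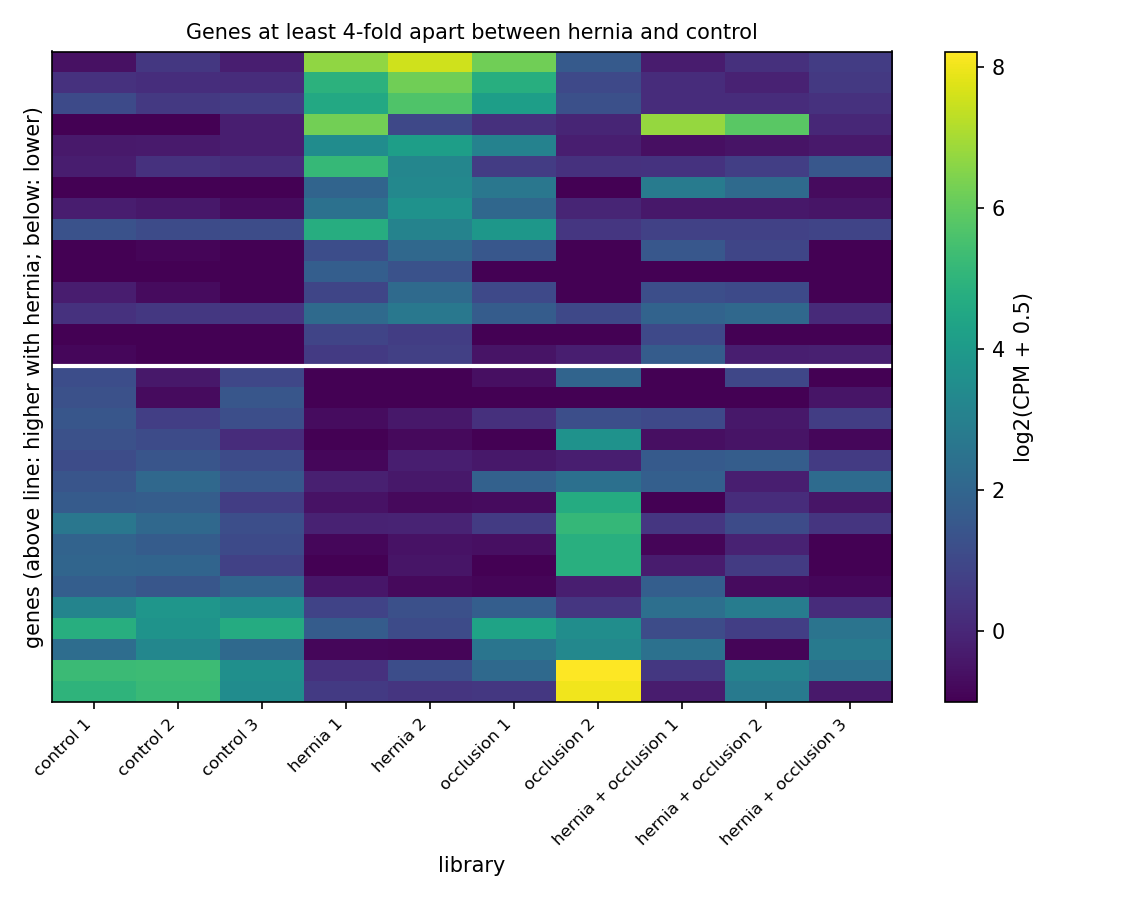
Colour gives log2(CPM + 0.5) of the 31 genes whose nearest hernia and control libraries lay at least 4-fold apart, 1 gene per row and 1 library per column. The 15 genes above the white line are brighter in both hernia libraries than in the controls, and 9 of them are also at least 4-fold above the controls in occlusion library 1. Occlusion library 2 is brightest for several of the 16 genes below the line.

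Hernia with occlusion against occlusion alone gives a second contrast of lungs with and without a hernia. Its 5 libraries share none with the comparison of hernia and control. The 2 occlusion libraries were 1189 genes apart at 2-fold or more, against 508 to 931 for a control and a hernia library. This spread limits what the second contrast can show about a hernia effect. No gene passed there in edgeR at an adjusted p under 0.05 (0%), and 633 genes (4.73%) had an unadjusted p under 0.05. The 100 genes of lowest p among those higher in hernia against control had a median log2 change of 0.85 in that comparison and of 0.04 in the occluded lungs. In the occluded lungs 54 of these 100 genes were higher, beside 51.8% of all genes. At an unadjusted p under 0.05, 8 of the 100 were higher and 10 lower, beside 1.21% and 3.52% of all genes.

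The 100 genes of lowest p among those lower in hernia against control had a median log2 change of -0.74 there and of 0.07 in the occluded lungs. Lower values in the occluded lungs were seen for 39 of these 100 genes, beside 48.2% of all genes. At an unadjusted p under 0.05, 8 of the 100 were lower and 3 higher, beside 3.52% and 1.21% of all genes. The same estimate of each gene's spread, from all 10 libraries, enters both comparisons. A test of the difference between the hernia effects without and with occlusion called 0 genes in edgeR (0%) and 66 genes (0.493%) in DESeq2. An unadjusted edgeR p under 0.05 was reached by 1324 genes (9.9%). Without occlusion library 1 edgeR called 11 genes for this difference, without occlusion library 2 it called 6, and without hernia with occlusion library 1 it called 1.

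**Figure D5:**
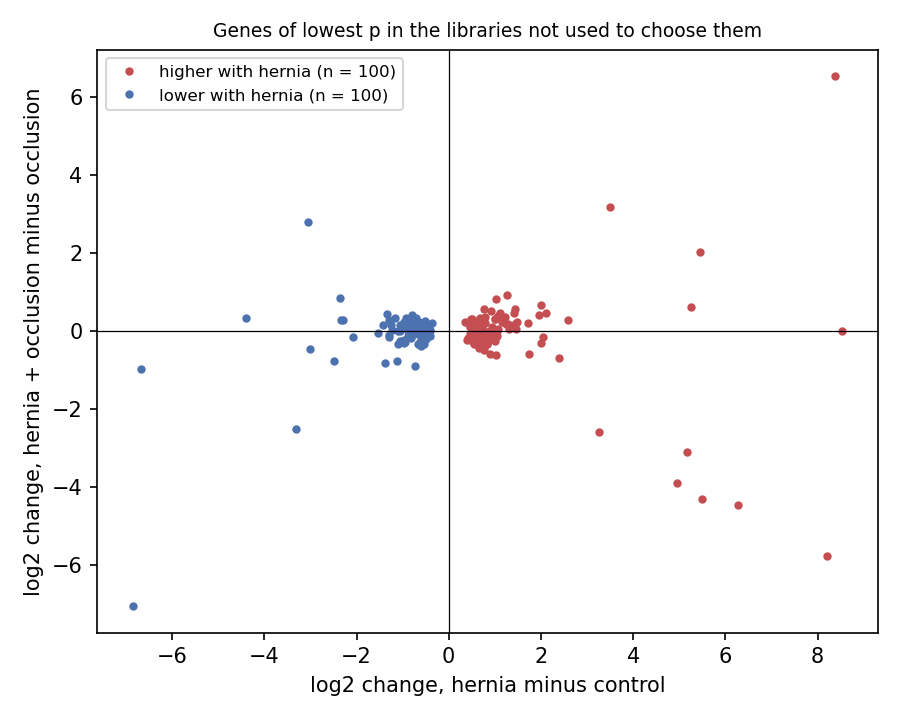
Each point is 1 of 200 genes, the 100 of lowest p in each direction for hernia against control. The horizontal axis gives the log2 change of that comparison, which chose the genes, and the vertical axis the log2 change of hernia with occlusion minus occlusion in 5 other libraries. Points scatter around 0 on the vertical axis, with medians of 0.04 for the genes higher with a hernia and 0.07 for the genes lower.

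The number of genes called in hernia against control rested on which libraries entered the fit. The shared estimate of spread included the 2 occlusion libraries, which were 1189 genes apart at 2-fold or more. With 1 of them left out, that group adds nothing to the estimate. Whether this accounts for the counts was not tested. In edgeR, 16 genes were called without occlusion library 1, 17 without occlusion library 2 and 3 without hernia with occlusion library 2, while 0 were called without control 1, control 3, hernia library 2, or hernia with occlusion library 1 or 3. The 5 control and hernia libraries fitted alone gave 12 calls, of which 8 were higher and 4 lower.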

How the data were processed

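RNA from the left upper lobe was sequenced in 10 libraries. The authors deposited 1 table of whole-number values for 13429 genes, treated here as estimated counts because column totals differ; its name speaks of CPM. Per the submitters' processing notes, kallisto 0.42.2.1, edgeR and the build OryCun2.0 were used, in roles that are not stated; nor is there a statement on summing to genes or filtering. None of the identifiers matched a table of 38822 rabbit genes, so the gene and marker lists could not be applied. Values of near-identical or overlapping genes are uncertain, since shared reads may be split.

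A gene was kept at 1 CPM or more in 2 or more libraries (50 removed). An edgeR 4.0.16 quasi-likelihood model (R 4.3.3) with TMM scaling gave each group its own mean and used all 10 libraries (6 residual degrees of freedom), since 2 libraries estimate a spread poorly. Benjamini-Hochberg adjusted p under 0.05 over all 13379 genes was called. The standard error is the absolute log2 change divided by the root of F. CPM in the text is TMM-scaled, and differences between libraries used log2(CPM + 0.5). The fit was checked on counts simulated with the spread of these data, where median fitted log2 changes had to lie near the simulated ones. That check set no limit on false or missed calls. The named genes are the 2 of lowest p in each direction with no overlap and a mean of at least 5 CPM in the higher group. Alternatives were DESeq2 1.42.0, limma 3.58.1 (voom, with and without library weights), other scalings and filters, the 5 libraries alone, and leaving out each library. The members and lists were chosen with earlier results of these data known. The gap sizes, level classes and lists of 100 genes were chosen after the data were seen. Counts of the closest pair of the 5 libraries, controls 1 and 3, differed by more than counting noise allows (chi-square of 13.8 for each degree of freedom), so each library counted as 1 replicate. Replicates were numbered in accession order.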

Additional observations from a re-analysis of the deposited data

How the results depend on the processing

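The 4 named genes kept their direction in all 19 alternatives run for each. ENSOCUG00000001536 lost its call in 5 of them. Over all 19 its adjusted p ran from 1.97e-16 in DESeq2 to 0.194 in edgeR without control 1. ENSOCUG00000006106, ENSOCUG00000009644 and ENSOCUG00000000468 passed in 3, 7 and 4. The single edgeR call became 148 in DESeq2, 3 in limma-voom, 44 with library quality weights and 12 with the 5 control and hernia libraries alone, and 0 to 17 when a library was left out. It stayed at 1 under the other scalings and filters and with a robust spread. The 1438 genes at an unadjusted p under 0.05 became 2696 with quality weights and 852 to 1805 without 1 library. Shares without overlap were 21.3% to 32.9% higher and 20.6% to 30.496% lower without 1 of the 5 libraries; fewer libraries make no overlap easier to reach. Genes with a fitted change of at least 2-fold numbered 433 in the fit reported, 204 with a filter of 5 CPM, which tests fewer genes, and 431 to 896 without 1 library. DESeq2 called 515 genes in the 5 libraries and 49 to 197 without 1 of them. The share of genes of at least 100 CPM at an unadjusted p under 0.05 was, in the 5 libraries alone, 4.54% for genes higher with a hernia and 13.6% for genes lower, and without 1 of them 1.42% to 3.65% and 4.36% to 12.5%. The difference between hernia effects had 66 DESeq2 calls and 0 to 11 edgeR calls without 1 library. Other causes were not tested. The DESeq2 fits of fewer libraries and the alternatives for genes of at least 100 CPM were chosen after seeing the data. With 1 hernia library left, that library is assumed to vary like the other groups. No paired analysis was possible because the labels give no replicate numbers, litters or days that control and hernia libraries share.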
